A study of Homo sapiens with 6 samples.

Results

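Histone methylation and acetylation enzymes are the proteins that write and erase the lysine marks of histone tails. Genes were taken as members by their symbol: the KDM, KMT2, KMT5, SETD, SETDB, EHMT, SUV39H, EZH, NSD, KAT, HDAC and SIRT families together with EED and SUZ12. The letters of these families matched 75 gene symbols. KDM5D and HDAC9 were left out by the rule, and 2 non-coding transcripts that carry a family name, KDM7A-DT and KMT2E-AS1, were left out because they encode no enzyme. That left 71 members of the 19775 genes that had a probe set of their own, 37 of them writers and 34 erasers. A gene measured by several probe sets (the groups of short probes that report a transcript) was represented by its brightest.

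The cells were U251, an established human glioma line, infected with virus and selected with puromycin to give stable lines. The control line carried GFP and the other line overexpressed PARK2, the gene of the E3 ubiquitin ligase parkin, and each was measured on 3 Affymetrix arrays labelled as biological replicates. The labels do not say whether each line was a clone or a pool, or whether the replicates were separate cultures, so the p-values speak only to how far these arrays scatter, part of which may be technical. Line and transgene cannot be told apart. The level of the transgene was not analysed here. In bulk RNA, fewer cells of a type and less RNA per cell cannot be told apart either.

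As background, methyltransferases with a SET domain place methyl groups on particular lysines: those of H3K4 mark promoters and enhancers, those of H3K9 mark silent heterochromatin, the Polycomb repressive complex PRC2 methylates H3K27, and the NSD proteins and SETD2 methylate H3K36. Acetyltransferases open chromatin by neutralising lysine charge. Demethylases of the KDM families remove methyl groups using oxygen and 2-oxoglutarate or, in KDM1A and KDM1B, a flavin. Deacetylases fall into the zinc-dependent HDACs and the NAD-dependent sirtuins. In gliomas these enzymes are known for the H3K27 and H3K36 marks, which are altered by histone mutations and SETD2 loss in part of the tumours, and EZH2 and the HDACs have been tried as drug targets.

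The arrays held together by group: log2 values correlated at 0.989 to 0.992 within groups and 0.959 to 0.961 between them, and median intensities lay between 16.23 and 19.25. Writers in control replicate 1 had a median deviation of 0.28 (log2) from each gene's mean, against -0.13 to 0.01 in the other 5 arrays. Erasers stood at 0.197 in that array, against -0.102 to 0.054 in the other 5. Control replicate 1 was also the brightest array as a whole. Its mean intensity without the top and bottom 2% of probe sets was 168.3, against 137.2 to 154.9 in the others. Of 10 glioma markers, VIM, CD44 and NES were among those that did not pass the test, GFAP (0.53, log2) and SOX2 (0.30) were higher, S100B (-1.39) was lower, and OLIG2 and AQP4 fell below the filter on dim probe sets. Of 16 markers of other cell types, 2 neuronal ones, SNAP25 (1.26) and SYT1 (2.50), were higher, KRT18 (-1.12) was lower, 8 were under the filter and none was at 0. Their summed intensity ran from 425 to 491.1 over the control arrays and from 445.8 to 564.9 over the PARK2 arrays. The sum of the 3 neuronal markers was 26.4 to 34.73 against 189.8 to 256.1. That of the 4 epithelial markers, which include KRT18, was 209 to 315.2 against 129.9 to 136.7. The part of these markers in the results was not tested.

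The PARK2 line had more NSD2 and less KAT2A than the control line, and these were the largest rise and the largest fall among the enzymes tested. Overall 15 of the 70 tested members changed (21.4%), 3 of them higher and 12 lower in the PARK2 line, with limma's test and Benjamini-Hochberg adjusted p under 0.05 over 13720 genes. The higher genes were NSD2, HDAC4 and SIRT7. The lower genes were KMT2C, SETD1B, SUZ12, SETD6, KAT2A, KAT5, KAT6B, KDM2A, KDM3A, KDM5C, KDM6A and HDAC5.

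Among all genes tested, 28.8% passed the same threshold, 13.3% higher and 15.6% lower, so the members' share of 21.4% was not above the background. The members' 4.29% higher was below the 13.3% of all genes, and their 17.1% lower was close to the 15.6%. These shares of all genes are the ones to set beside each class count below. The median log2 fold change of the members was -0.10 (quartiles -0.33 and 0.13), beside -0.0026 for all genes (quartiles -0.27 and 0.24). Values were above 0 in 27 members and below 0 in 43. No member changed by 2-fold, whereas 5.59% of all genes passed the threshold with at least that change, and 22 members had an unadjusted p under 0.05. The 2 groups of arrays did not overlap for 23 members (32.9%), 5 higher and 18 lower, against 39.5% of all genes, 18.3% higher and 21.1% lower.

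Writers and erasers had similar counts. Of 37 writers, 1 was higher and 7 were lower (21.6%), with a median of -0.10, and of 33 tested erasers, 2 were higher and 5 lower (21.2%), with a median of -0.11. The split of higher and lower writers was 3 and 10 under quantile normalization or trimmed mean scaling, and that of erasers was 1 and 5 under median centring. Single arrays also moved these counts. Without control replicate 1, 6 writers were higher and 6 lower, and 1 eraser was higher and 2 were lower. All genes moved the same way in that fit, with 2800 of 13680 higher (20.5%) and 1812 lower (13.2%), beside 16.2% of writers higher. Without control replicate 2, 5 writers were lower, and 1 eraser was higher and 1 lower, and without control replicate 3, 10 writers were lower, and 1 eraser was higher and 6 lower. The lower writers and erasers numbered 3 and 2 without PARK2 replicate 1, 4 and 5 without PARK2 replicate 2, and 4 and 3 without PARK2 replicate 3, and 1 eraser was higher without PARK2 replicate 2. SIRT4, a mitochondrial sirtuin, was under the filter and was not tested: its intensities were 1.13, 0.828 and 7.59 in the control arrays and 6.32, 10.4 and 8.20 in the PARK2 arrays.

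**Figure D1:**
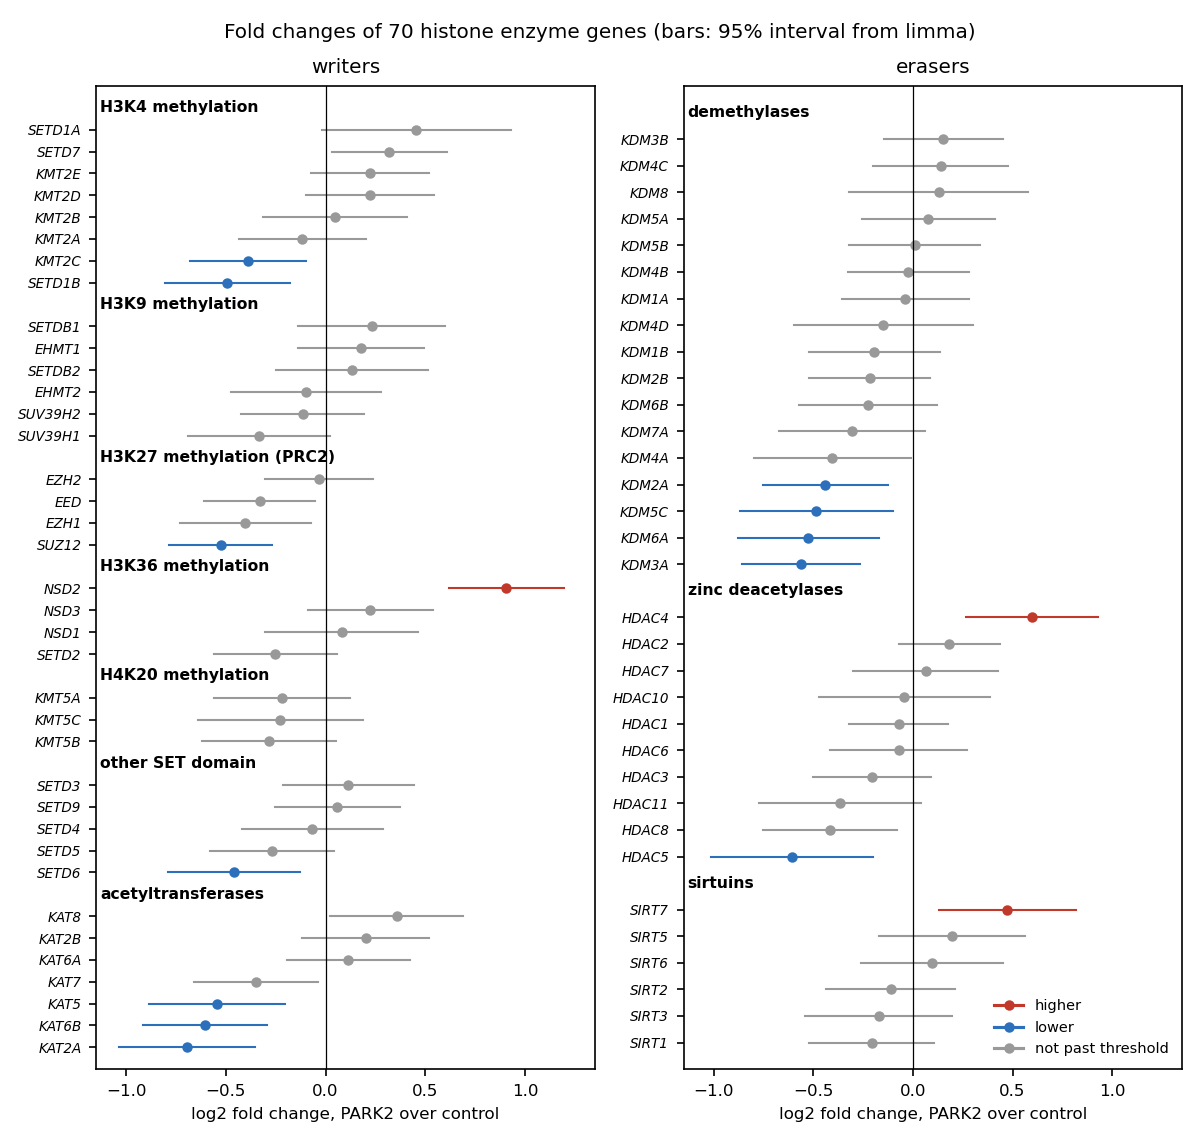
Log2 fold change of PARK2 over control (x axis) for each of the 70 tested enzyme genes (rows), grouped by the mark or enzyme type, with writers in the left panel and erasers in the right. Points are estimates, bars are 95% intervals from limma, and colour marks genes past the threshold; NSD2 at 0.91 stands farthest to the right and KAT2A at -0.70 farthest to the left.

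The promoters of the genes with the largest rise and the largest fall are shown. Both the genes and the motifs were chosen after the fold changes were known. Promoters, 250 bases before to 50 after the start in RefSeq for GRCh38.p14, were found for 65 of the 71 members. In both sequences, capitals mark matches on either strand to a GC box (GGGCGG, bound by SP factors), a CCAAT box (CCAAT, bound by NF-Y) or an ETS core (CCGGAAG, bound by ETS factors). The NSD2 window is chr4:1871143-1871442 on the plus strand and the KAT2A window chr17:42121318-42121617 on the minus strand, both printed 5′ to 3′.
NSD2: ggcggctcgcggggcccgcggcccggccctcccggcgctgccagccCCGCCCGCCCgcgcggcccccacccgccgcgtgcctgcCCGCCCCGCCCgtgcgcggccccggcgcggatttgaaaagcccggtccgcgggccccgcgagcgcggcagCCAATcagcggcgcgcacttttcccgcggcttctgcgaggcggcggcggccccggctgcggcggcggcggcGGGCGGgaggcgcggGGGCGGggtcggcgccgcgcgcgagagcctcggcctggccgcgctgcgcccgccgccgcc
KAT2A: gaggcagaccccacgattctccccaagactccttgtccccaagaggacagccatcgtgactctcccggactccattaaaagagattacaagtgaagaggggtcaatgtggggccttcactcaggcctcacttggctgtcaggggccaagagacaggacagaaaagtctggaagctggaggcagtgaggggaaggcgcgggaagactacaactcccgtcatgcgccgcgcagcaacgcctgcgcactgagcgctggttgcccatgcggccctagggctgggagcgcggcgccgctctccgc

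The NSD2 promoter had a GC content of 86.7% with 6 GC boxes and 1 CCAAT box, and the KAT2A promoter had 62% with no match to any of these motifs. Members' promoters were GC rich, with a median of 67% against 58% over all 27305 promoters of the table. Their CpG observed over expected ratio had a median of 0.872 against 0.557. All promoters include those of many genes not tested here, and members were not compared with the 13720 tested genes alone. A GC box was present in 47 of 65 (72.3%) against 43.8% of all promoters, a CCAAT box in 19 (29.2%) against 35.6%, and an ETS core in 11 (16.9%) against 10.6%. TATAAA on either strand was in none of the 65 and in 12.1% of all. Among the 12 changed members with a promoter, 8 held a GC box (66.7%), 5 a CCAAT box (41.7%) and 3 an ETS core (25%). Among the 52 tested members with a promoter that did not pass, the shares were 75%, 26.9% and 15.4%. Median GC content was 66.83% in the changed members and 68% in those 52.

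Of the 8 genes grouped as H3K4 methyltransferases, 2 were lower (25%, beside 15.6% of all genes) and none was higher. Their median log2 fold change was 0.13. SETD1B, a catalytic subunit of the COMPASS complexes that trimethylate H3K4 at promoters, had intensities of 601, 539 and 417 in control and 346, 411 and 328 in PARK2 arrays. Every PARK2 array lay below every control array. Its mean was 519 ± 93.7 (SD, n = 3) in control and 361 ± 44.0 in PARK2, a log2 fold change of -0.49 (SE 0.16, adjusted p = 0.0121). KMT2C, which monomethylates H3K4 at enhancers, measured 1152, 819 and 875 in control and 687, 724 and 726 in PARK2 arrays. Here too the groups were apart, although control replicate 1 was well above the other two. The means were 949 ± 178 and 712 ± 21.9 and the log2 fold change was -0.39 (SE 0.15, adjusted p = 0.0350).

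Both calls depended on single arrays. SETD1B no longer passed without control replicate 1 (-0.38, adjusted p = 0.0515, or 0.0495 over the genes and probe sets chosen on all 6 arrays), control replicate 2 (-0.46, 0.0786), PARK2 replicate 1 (-0.47, 0.0592) or PARK2 replicate 3 (-0.43, 0.0955). KMT2C no longer passed without control replicate 1 (-0.25, 0.0615), PARK2 replicate 1 (-0.37, 0.123), PARK2 replicate 2 (-0.40, 0.113) or PARK2 replicate 3 (-0.40, 0.0981).

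Their paralogues did not pass. SETD1A, the partner of SETD1B, had a log2 fold change of 0.46 (SE 0.24, adjusted p = 0.154) from a dim probe set, with a mean of 15.9 ± 10.6 in control. KMT2D, the partner of KMT2C at enhancers, was at 0.22 (SE 0.16, adjusted p = 0.337). SETD7, which monomethylates H3K4 and several non-histone proteins, measured 811, 671 and 642 in control and 904.5, 822 and 927 in PARK2 arrays. The groups did not overlap, but its log2 fold change of 0.32 (SE 0.14) had an adjusted p of 0.0895. SETD7 was higher past the threshold under 5 of the 20 alternative settings, among them the 3 scalings.

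None of the 6 H3K9 methyltransferases passed, and their median was 0.02. SUV39H1, which trimethylates H3K9 in heterochromatin, was at -0.33 (SE 0.18, adjusted p = 0.169), and SETDB1, which silences retroelements, was at 0.23 (SE 0.19, adjusted p = 0.401). EHMT1, which dimethylates H3K9 together with EHMT2, was at 0.18 (SE 0.16, adjusted p = 0.461).

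Of the 4 PRC2 core genes, SUZ12 was lower and the other 3 did not pass, while all 4 estimates were below 0 with a median of -0.37. SUZ12, the scaffold that holds the complex together, measured 2505, 2549 and 2398 in control and 1511, 1836 and 1828 in PARK2 arrays. The 2 groups were widely apart. The mean was 2484 ± 77.5 in control and 1725 ± 185 in PARK2, which is 1.44-fold lower (log2 -0.53, SE 0.13, adjusted p = 0.000900). The call held with each of the 6 arrays left out in turn but not as a mean of its probe sets (-0.37, adjusted p = 0.0877). That mean gives equal weight to a dim SUZ12 probe set, with means of 17.9 in control and 14.0 in PARK2.

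Neither catalytic subunit of PRC2 passed, and they were not compared with each other. EZH2, the catalytic subunit of dividing cells, measured 1458, 1222 and 1263 in control and 1252, 1319 and 1271 in PARK2 arrays. These ranges overlapped, and the log2 fold change was -0.03 (SE 0.14, 95% interval -0.30 to 0.24, adjusted p = 0.896). EZH1, the catalytic subunit prominent in resting cells, measured 366, 275 and 239 in control and 207, 213 and 224 in PARK2 arrays. Its groups were apart, at -0.40 (SE 0.16, 95% interval -0.73 to -0.08, adjusted p = 0.0562). Dimmer EZH1 probe sets ran from -0.63 to 0.47, and none passed. EED, which binds trimethylated H3K27 and activates the complex, measured 1150, 1030.0 and 1009 in control and 815, 799.7 and 911 in PARK2 arrays. The groups were apart as well, at -0.33 (SE 0.14, adjusted p = 0.0684). EZH1 passed the threshold under 7 of the 20 alternative settings and EED under 6.

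NSD2 was the only one of the 4 H3K36 methyltransferases past the threshold. This enzyme dimethylates H3K36 and is overexpressed by a chromosomal translocation in part of multiple myelomas. Its intensities were 630.2, 567 and 514 in control and 998, 1081 and 1169 in PARK2 arrays. The lowest PARK2 array was well above the highest control array. The means were 570.4 ± 58.2 and 1083 ± 85.4, a rise of 1.88-fold (log2 0.91, SE 0.14, 95% interval 0.62 to 1.19, adjusted p = 6.0e-07). The call held under all 20 alternative settings.

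The NSD2 probe sets were not alike. In a test over all 26603 probe sets, of which 20.4% passed, 3 of the 6 NSD2 probe sets were higher, at log2 fold changes of 0.91, 0.67 and 0.61, and the other 3 were at 0.44, 0.27 and -0.13. Averaged over its probe sets, NSD2 was at 0.46. The NSD2 paralogues, NSD1 at 0.08 (SE 0.19, adjusted p = 0.820) and NSD3 at 0.23 (SE 0.16, adjusted p = 0.319), did not pass, and neither did SETD2, the H3K36 trimethylase, at -0.25 (SE 0.15, adjusted p = 0.239), whose groups were apart.

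Over the 174 member probe sets in that test, 6 were higher and 8 lower. They included 1 dimmer probe set each of NSD3 (0.54) and SIRT3 (0.68) that was higher while the brightest of the same gene did not pass, and these 2 were named after their values were seen. Of the 15 changed members, 9 also passed in this test with the probe set used above. The other 6, KMT2C, SETD6, KDM2A, HDAC5, SIRT7 and KDM5C, did not, although another KMT2C probe set was lower at -0.77.

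The H4K20 methyltransferases KMT5A, KMT5B and KMT5C had estimates between -0.28 and -0.22, and none passed. Among the 5 other SET domain genes, SETD6, which methylates the NF-kB subunit RELA, was lower. It measured 186.5, 187 and 201 in control and 115, 137 and 156 in PARK2 arrays. All PARK2 values lay below the controls, with means of 192 ± 8.13 and 136 ± 20.7 and a log2 fold change of -0.46 (SE 0.17, adjusted p = 0.0301). With this probe set kept, the call was lost without control replicate 2 (-0.47, adjusted p = 0.0897), PARK2 replicate 1 (-0.36, 0.195) or PARK2 replicate 2 (-0.47, 0.0953), and it held without PARK2 replicate 3 (-0.55, 0.0349). When the brightest probe set was chosen again, another SETD6 probe set took its place without control replicate 2 (-0.47, 0.0959), control replicate 3 (-0.50, 0.0167) or PARK2 replicate 3 (-0.48, 0.0798). SETD5 was at -0.27 (SE 0.16, adjusted p = 0.210) and SETD3, an actin histidine methyltransferase, at 0.11 (SE 0.16, adjusted p = 0.676).

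Lysine acetyltransferases had 3 of 7 members lower (42.9%, beside 15.6% of all genes) and none higher, with a median of -0.35. KAT2A, the GCN5 acetyltransferase of the SAGA and ATAC coactivator complexes, measured 267, 207 and 188 in control and 118, 113 and 158 in PARK2 arrays. The groups did not overlap. With means of 221 ± 41.5 and 129.8 ± 24.7 it was 1.62-fold lower (log2 -0.70, SE 0.17, adjusted p = 0.000962). The call held under all 20 alternative settings, but KAT2A had 1 probe set, so the mean of probe sets could not change its values. Its paralogue KAT2B, PCAF, was at 0.20 (SE 0.16, adjusted p = 0.388).

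KAT6B, an H3K23 acetyltransferase of the MYST family, measured 525, 442 and 416 in control and 267, 298 and 328 in PARK2 arrays. Again the groups were apart, at means of 461 ± 57.1 and 298 ± 30.7 and a log2 fold change of -0.60 (SE 0.16, adjusted p = 0.00177). Its call held with each array left out but not as a mean of its probe sets (-0.28, adjusted p = 0.200). KAT6A, the paralogue, was at 0.11 (SE 0.15, adjusted p = 0.657).

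KAT5, known as TIP60, the acetyltransferase of the NuA4 complex that acts at DNA breaks, measured 232, 178 and 152 in control and 114.5, 120.1 and 132 in PARK2 arrays. The PARK2 arrays were tightly grouped and all below the controls. Means were 188 ± 40.9 and 122 ± 8.79, with a log2 fold change of -0.54 (SE 0.17, adjusted p = 0.0112). The name of this probe set is marked as able to bind other transcripts. So are those of the other KAT5 probe sets, with control means of 151 and 143. In the test over all probe sets these were at -0.18 (adjusted p = 0.557) and -0.15 (adjusted p = 0.618). The call was lost without PARK2 replicate 1 (-0.50, adjusted p = 0.0603) or PARK2 replicate 2 (-0.53, 0.0521). KAT7 was at -0.35 (SE 0.16, adjusted p = 0.0868). KAT8, the H4K16 acetyltransferase MOF, was at 0.36 (SE 0.17, adjusted p = 0.105), with groups that did not overlap.

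**Figure D2:**
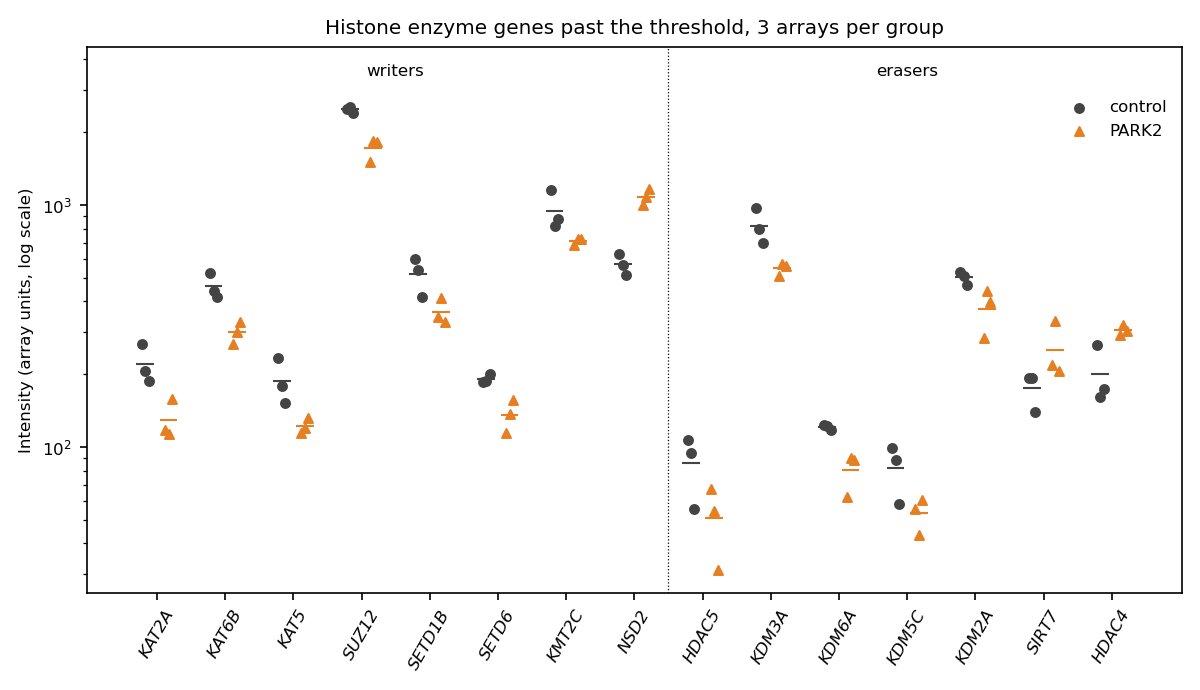
Intensity (y axis, log scale, array units) of the 15 enzyme genes past the threshold in the 3 control arrays (grey circles) and the 3 PARK2 arrays (orange triangles), with short lines at the group means and writers to the left of the dotted line. For 13 genes the groups are apart, and for KDM5C and HDAC5 they overlap.

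Demethylases had 4 of 17 members lower (23.5%, beside 15.6% of all genes) and none higher, with a median of -0.19 and 12 estimates below 0. KDM3A, which removes methyl groups from H3K9 and is induced by hypoxia, measured 969, 797 and 697 in control and 510.0, 573 and 558 in PARK2 arrays. The groups were apart. The means of 821 ± 137 and 547 ± 32.8 gave a 1.48-fold lower level (log2 -0.56, SE 0.15, adjusted p = 0.00229). The call held under the 19 alternatives that gave a value, which include each array left out. KDM3A had 1 tested probe set, so the mean of probe sets could not change its values. KDM3B, its paralogue, was at 0.15 (SE 0.15, adjusted p = 0.507).

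KDM6A, known as UTX, an X-linked H3K27 demethylase that also sits in the KMT2C and KMT2D complexes, measured 123, 123 and 118 in control and 62.0, 90.4 and 88.1 in PARK2 arrays. All PARK2 values were below the controls, with PARK2 replicate 1 the lowest. At means of 121 ± 3.14 and 80.2 ± 15.8 the log2 fold change was -0.52 (SE 0.18, adjusted p = 0.0189). Without control replicate 2 (-0.52, adjusted p = 0.0719) or PARK2 replicate 1 (-0.38, 0.182) it did not pass. KDM6B, the other H3K27 demethylase, was at -0.23 (SE 0.17, adjusted p = 0.372), also with groups apart.

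KDM2A, a CpG-island binding H3K36 demethylase, measured 531, 511.5 and 468 in control and 281, 439.9 and 397.5 in PARK2 arrays. No PARK2 array reached the controls. The means were 503 ± 32.1 and 373 ± 82.0, at a log2 fold change of -0.44 (SE 0.16, adjusted p = 0.0287). Leaving out control replicate 1 (-0.40, adjusted p = 0.0779), control replicate 2 (-0.43, 0.109) or PARK2 replicate 1 (-0.26, 0.336) ended the call. KDM2B, a paralogue that recruits a PRC1 complex to CpG islands, was at -0.22 (SE 0.15, adjusted p = 0.320).

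KDM5C, an X-linked H3K4 demethylase, measured 99.2, 88.5 and 58.1 in control and 55.7, 43.5 and 60.4 in PARK2 arrays. Its groups overlapped, since PARK2 replicate 3 was above control replicate 3. The means were 81.9 ± 21.3 and 53.2 ± 8.70 and the log2 fold change -0.48 (SE 0.19, adjusted p = 0.0488). With this probe set kept, the call was lost without control replicate 1 (-0.35, adjusted p = 0.186), control replicate 2 (-0.43, 0.182), PARK2 replicate 1 (-0.51, 0.0864), PARK2 replicate 2 (-0.38, 0.247) or PARK2 replicate 3 (-0.56, 0.0554). Without PARK2 replicate 2 another KDM5C probe set became the brightest, and that one was at -0.10 (adjusted p = 0.825). KDM5A at 0.08 (adjusted p = 0.798) and KDM5B at 0.01 (adjusted p = 0.977) did not pass. Among the remaining demethylases KDM4A was at -0.40 (SE 0.20, adjusted p = 0.121) and KDM7A at -0.31 (SE 0.18, adjusted p = 0.228).

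Among the 10 zinc-dependent deacetylases HDAC4 was higher and HDAC5 lower, and both are class IIa enzymes, which shuttle between nucleus and cytoplasm and repress MEF2 factors. HDAC4 measured 264, 161 and 174 in control and 291, 319 and 301.5 in PARK2 arrays. The groups were apart, with control replicate 1 close to the PARK2 arrays. At means of 199.6 ± 55.8 and 304 ± 13.8 it was 1.51-fold higher (log2 0.60, SE 0.17, adjusted p = 0.00378). Without control replicate 2 it was at 0.47 with an adjusted p of 0.0794. The mean of its probe sets did not pass (0.28, adjusted p = 0.213).

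HDAC5 measured 107, 94.5 and 55.5 in control and 67.2, 54.4 and 31.0 in PARK2 arrays. Its groups overlapped, with PARK2 replicate 1 above control replicate 3. The means were 85.7 ± 26.99 and 50.9 ± 18.4, at a log2 fold change of -0.61 (SE 0.20, adjusted p = 0.0177). Without control replicate 1 (-0.45, adjusted p = 0.204), control replicate 2 (-0.53, 0.0810) or PARK2 replicate 3 (-0.37, 0.246) it did not pass. Nor did it pass under any of the 3 scalings, with quantile normalization (-0.60, adjusted p = 0.0676), median centring (-0.62, 0.0529) or trimmed mean scaling (-0.58, 0.0629), or as a mean of its probe sets (-0.39, 0.101). The third class IIa member, HDAC7, was at 0.07 (SE 0.18, adjusted p = 0.845).

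No class I deacetylase passed. HDAC1, a catalytic subunit of the NuRD, SIN3 and CoREST corepressors, was at -0.07 (SE 0.12, 95% interval -0.32 to 0.18, adjusted p = 0.745) with means of 2834 ± 350.1 and 2688 ± 127. HDAC2, its close paralogue, was at 0.18 (SE 0.13, adjusted p = 0.310), and HDAC3, the enzyme of the NCoR complex, at -0.20 (SE 0.15, adjusted p = 0.342). HDAC8 measured 187, 152 and 157 in control and 123.5, 113 and 122 in PARK2 arrays. Its groups were apart, but the log2 fold change of -0.42 (SE 0.17) had an adjusted p of 0.0543. HDAC8 passed the threshold under 7 of the 20 alternative settings, among them the 3 scalings. HDAC11, the class IV enzyme, was at -0.37 (SE 0.20, adjusted p = 0.185). A dimmer HDAC11 probe set went the other way, at 0.58 in the test over all probe sets (adjusted p = 0.114).

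SIRT7, a nucleolar deacetylase of H3K18, was the only sirtuin past the threshold of 6 tested. It measured 193, 192 and 140.1 in control and 218.5, 333 and 206 in PARK2 arrays. The groups were apart, and PARK2 replicate 2 stood above the rest. At means of 175 ± 30.4 and 253 ± 70.1 the log2 fold change was 0.47 (SE 0.17, adjusted p = 0.0302). Without control replicate 1 (0.54, adjusted p = 0.0513, or 0.0485 over the genes and probe sets chosen on all 6 arrays), control replicate 3 (0.33, 0.130) or PARK2 replicate 2 (0.27, 0.414) it did not pass, and neither did it under median centring (0.46, adjusted p = 0.0539). SIRT1, a nuclear deacetylase of histones and p53, was at -0.21 (SE 0.16, adjusted p = 0.368) and SIRT5, a mitochondrial desuccinylase, at 0.20 (SE 0.18, adjusted p = 0.484).

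**Figure D3:**
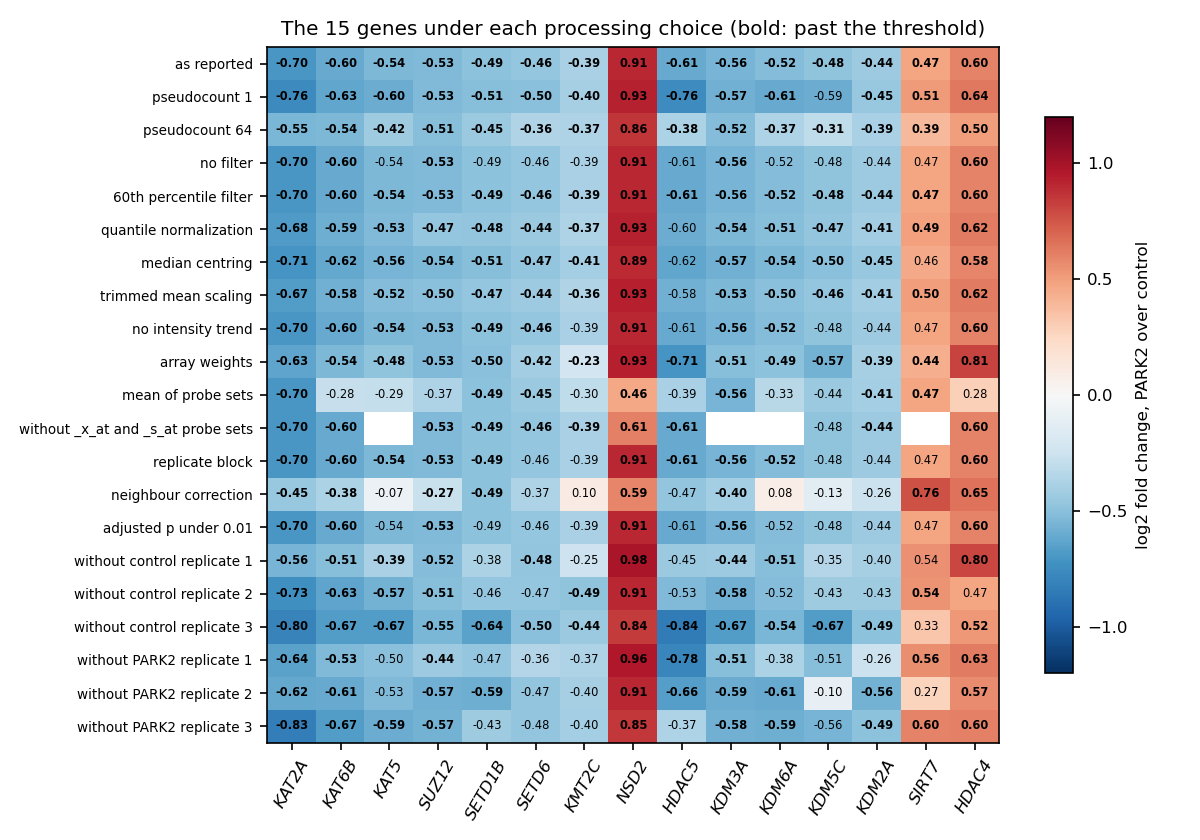
Log2 fold change of PARK2 over control (colour and number) of the 15 enzyme genes past the threshold (columns) under the processing as reported and each of the 20 alternatives (rows); bold numbers passed the threshold, white cells have no value, and the brightest probe set was chosen again in each row, which changed that of SETD6 in 3 rows and of KDM5C in 1. NSD2 and KAT2A are bold in every row and KDM3A in every row that gave it a value.

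By setting, the mean of probe sets ended the calls of KMT2C (-0.30, adjusted p = 0.159), KAT5 (-0.29, 0.164), KDM6A (-0.33, 0.123) and KDM5C (-0.44, 0.0702) besides those given above. Without the filter on dim probe sets, KMT2C, SETD1B, SETD6, KAT5, KDM2A, KDM5C, KDM6A, HDAC5 and SIRT7 no longer passed. Without the intensity trend, this was so for KMT2C, KDM2A, KDM5C, HDAC5 and SIRT7.

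Each member was set beside its chromosomal neighbourhood, taken as the median log2 fold change of the 10 nearest tested genes on either side in the RefSeq order. Of the 12 lower members, 11 had neighbours below 0. KDM6A (neighbours -0.60), KMT2C (-0.49), KAT5 (-0.47) and KDM5C (-0.35) lay closest to their neighbours' shift. SIRT7 (neighbours -0.29) and HDAC4 (-0.05) rose where their neighbours were below 0, and NSD2 had neighbours at 0.32.

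When the neighbours' deviation was taken off each array, all 3 higher members kept the call, with NSD2 at 0.59, HDAC4 at 0.65 and SIRT7 at 0.76 (adjusted p = 0.00236). Of the 12 lower members, 5 kept it: KAT2A (-0.45, adjusted p = 0.0194), KAT6B (-0.38), KDM3A (-0.40), SETD1B (-0.49) and SUZ12 (-0.27, adjusted p = 0.0289). The other 7 lost it, KMT2C (0.10, adjusted p = 0.500) and KDM6A (0.08, adjusted p = 0.722) with a change of sign, KAT5 at -0.07, KDM5C at -0.13, KDM2A at -0.26, SETD6 at -0.37 and HDAC5 at -0.47.

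A further 8 members passed only relative to their neighbours. In all 16 members passed in this fit, 6 higher and 10 lower (22.9%), against 28.4% of all genes. EZH2, whose neighbours on chromosome 7 were at -0.67, stood at 0.64 relative to them (adjusted p = 5.1e-05). HDAC6, an X-linked cytoplasmic tubulin deacetylase with neighbours at -0.56, was at 0.49 (adjusted p = 0.0101). SETD7, with neighbours at 0.64, was at -0.32 (adjusted p = 0.0242). HDAC3 (-0.45, adjusted p = 0.00174) and KDM1B (-0.37, adjusted p = 0.0196) were also among them, as were EZH1 (-0.30), KAT8 (0.39) and HDAC8 (-0.49). HDAC2, HDAC3, HDAC6 and KDM1B were named after their values were seen. Neighbours of 4 of the 5 X-linked members were below 0. Copy number of these regions was not tested.

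**Figure D4:**
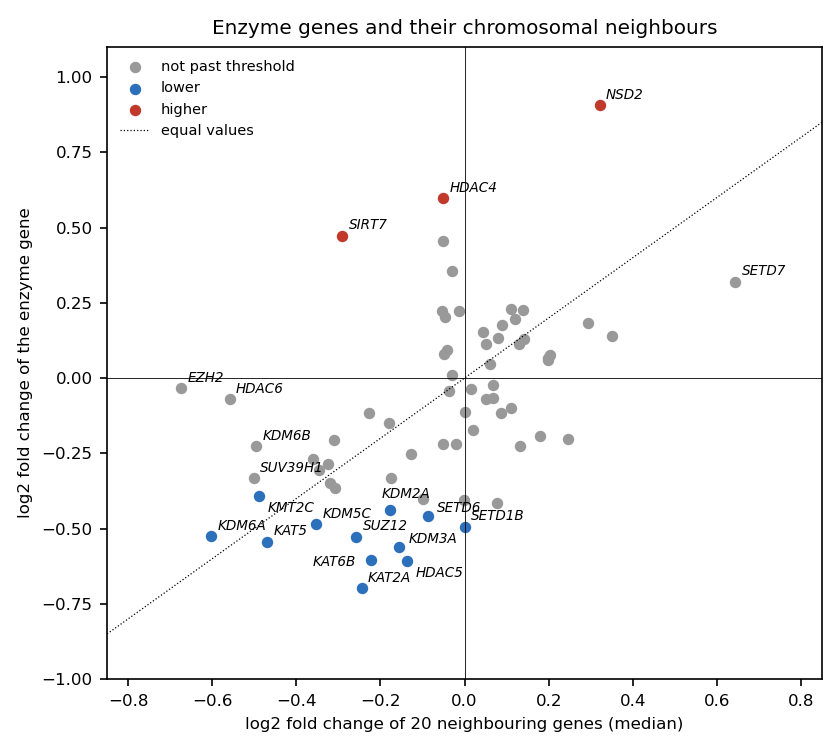
Log2 fold change of each of the 70 tested enzyme genes (y axis) against the median log2 fold change of its 20 neighbouring genes (x axis), coloured by call, with a dotted line of equal values. KDM6A and KAT5 lie near the line, while HDAC4, SIRT7 and EZH2 lie well above it.

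The partners of the enzymes, 145 listed genes of which 135 had a probe set of their own and were tested, had 10 members higher and 20 lower (22.2%), beside 28.8% of all genes, with a median of 0.02. The split was 25 and 28 under quantile normalization and 27 and 28 under trimmed mean scaling. With the neighbour correction it was 13 and 23. Leaving out control replicate 1 gave 23 higher and 19 lower. PARK2 replicate 2 left out gave 6 and 15, and PARK2 replicate 3 left out gave 6 and 18. Among 20 PRC2 accessory and PRC1 genes, 3 were higher and 5 lower (40%, beside 28.8% of all genes). PCGF3, a subunit of a variant PRC1, was at 0.96 (SE 0.15), and CBX7, a PRC1 reader of trimethylated H3K27, at 0.73 (SE 0.18). RBBP7, an X-linked histone chaperone shared by PRC2 and deacetylase complexes, was at -0.72 (SE 0.12). Neighbours of PCGF3, CBX7 and RBBP7 were at 0.30, -0.01 and -0.50. Of 12 COMPASS subunits, 1 was higher and 3 were lower (33.3%). PAXIP1, which belongs to the KMT2C and KMT2D complexes, was at -0.80 (SE 0.15). WDR82, which belongs to those of SETD1A and SETD1B, was at -0.73 (SE 0.13), and ASH2L, common to all of them, at 0.64 (SE 0.16). Neighbours of PAXIP1, WDR82 and ASH2L were at -0.36, -0.28 and 0.06.

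Acetyltransferase complexes had 1 higher and 5 lower of 36 genes (16.7%, beside 28.8% of all genes). MSL3, of the MSL complex that contains KAT8, was at -1.10 (SE 0.15), and JADE3, of the KAT7 complex, at -1.04 (SE 0.16). Both are X-linked and were the only partners past 2-fold. TADA2A, the adaptor that holds KAT2A or KAT2B in ATAC, was at -0.72 (SE 0.21). Neighbours of MSL3, JADE3 and TADA2A were at -0.43, -0.53 and -0.21. Of 26 deacetylase corepressor subunits, 2 were higher and 3 lower (19.2%). They were led by HMG20B of the KDM1A complex (0.83, SE 0.16), MBD2 (-0.70, SE 0.14) and MTA3 of NuRD (-0.62, SE 0.17). Neighbours of these genes were at 0.07, -0.51 and -0.29.

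Other demethylases had 1 higher and 2 lower of 7 (42.9%, beside 28.8% of all genes). PHF8, an X-linked H3K9 and H4K20 demethylase, was at -0.66 (SE 0.18), with neighbours at -0.40. The nucleolar oxygenases RIOX1 and RIOX2 were at 0.59 (SE 0.23) and -0.52 (SE 0.15), with neighbours at 0.04 and 0.02. The 14 other histone methyltransferases had 1 higher and 1 lower (14.3%). The arginine methyltransferase PRMT6 was at 0.44 (SE 0.15, neighbours 0.28) and SMYD2 at -0.34 (SE 0.13, neighbours 0.15). The 20 readers of acetylated and methylated lysine had 1 higher and 1 lower (10%). PHF20 of the NSL complex was at 0.72 (SE 0.15, neighbours 0.04). MORF4L1, which reads methylated H3K36, was at -0.37 (SE 0.11, neighbours -0.44).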

How the data were processed

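RNA of 3 control and 3 PARK2 arrays was compared. The values are the deposited series matrix intensities on a linear scale. Per the submitters' processing notes they involved GCOS and MAS5 (no version or role stated), and the scaling between arrays is not given in the sources used here. Gene names came from the platform annotation. The table held 54675 probe sets, of which 62 controls and those without exactly 1 gene symbol (41091 had it) were left out. Values were taken as log2(intensity + 16) without further normalization, so folds understate the change of dim genes. Probe sets under the 40th percentile of mean log2 value were left out (26603 remained), and the brightest per gene was tested (13720 genes).

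Groups were compared with limma 3.58.1 (lmFit, eBayes with intensity trend, two-sided, R 4.3.3) and Benjamini-Hochberg adjustment over all genes, with a threshold of 0.05. The same code was tested on simulated data, with 67, 67 and 66 of 13720 genes changed by 1.5, 2 and 4-fold. It recovered 16.4%, 79.1% and 97% of them, with 7 false calls. Far fewer genes changed there than passed in the data, which makes the adjusted threshold stricter in the simulation. Genes that did not pass were not shown to be unchanged. The number of arrays limits the precision. Members and lists were chosen with earlier results of these data known, and 2 non-coding names were left out after the files were seen. Named were every member past the threshold; per class the brightest and the 2 with the largest change of the others; paralogues of changed members; and per partner list up to 3 with the largest change past the threshold. The alternatives were other pseudocounts, filters, scalings, variance models, array weights, probe set rules, a replicate block, a neighbour correction, a threshold of 0.01 and each array left out. Same-numbered replicates of the 2 groups had deviations that correlated at 0.0453 to 0.168, against -0.122 to 0.0687 for differently numbered ones. The sample titles state no pairing, and the numbers were not taken to pair the samples. These correlations do not decide it, and a fit with the replicate number as a block is given below.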

Additional observations from a re-analysis of the deposited data

How the results depend on the processing

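Of the 15 changed enzyme genes, 3 (NSD2, KAT2A and KDM3A) kept the call under every alternative that gave a value and 12 lost it under at least 1. These counts are over 20 alternatives. KAT2A and KDM3A had 1 tested probe set each, so the mean of probe sets could not change their values. SUZ12 and KAT6B lost the call in that setting alone. KAT5, KDM3A, KDM6A and SIRT7 have no value without _x_at and _s_at probe sets. Of the 55 others, 18 passed under at least 1 alternative and 32 changed sign under at least 1. Signs turned for a gene past the threshold in the neighbour correction alone: KMT2C 0.10, SETD7 -0.32, EZH2 0.64, KDM6A 0.078 and HDAC6 0.49. Counts as reported were 1 writer higher and 7 lower, 2 erasers higher and 5 lower, and 10 partners higher and 20 lower. Without a filter, 3 writers were lower, and 1 eraser was higher and 1 lower, with more genes tested. With quantile normalization and with trimmed mean scaling, 3 writers were higher, with 25 and 27 partners higher; with median centring, 2 writers and 1 eraser were higher. Without the intensity trend, 1 eraser was higher and 2 were lower. With array weights (gene-by-gene method, chosen after the default did not converge), 10 writers, 33 partners and 3346 of all genes were higher and 8 erasers lower. With the mean of probe sets, 3 writers were lower, 1 eraser was higher and 2 lower, and 5 partners were higher. Without _x_at and _s_at probe sets, the writers' median was 0.025, 1 eraser was higher and 2 lower, and 12 partners were lower. With the neighbour correction, 3 writers were higher. At 0.01, 3 writers were lower, 1 eraser was higher and 1 lower, and 6 partners were higher. Apart from fewer or more features tested, the cause was not tested.

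With the replicate number as a block, 1 eraser was higher and 3 were lower, 1 writer higher and 5 lower, 7 partners higher and 18 lower, and 5 of the 15 genes lost the call. Leaving out 1 array at a time gave 1 to 6 writers higher, 3 to 10 lower and medians of -0.16 to -0.0031; 1 to 2 erasers higher, 1 to 6 lower and medians of -0.18 to -0.086; and 6 to 24 partners higher, 15 to 25 lower and medians of -0.057 to 0.12. These ranges include fits added after seeing the data, in which each gene kept the probe set chosen on all 6 arrays. In those, without control replicate 1, 6 writers were higher and 7 lower and 24 partners higher (23 with the brightest chosen again), and without PARK2 replicate 2, 4 writers were lower. Dim probe sets, such as those of SETD1A and SIRT4, lie near background and limit what can be read from them.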
